A study of Mus musculus with 24 samples.

Results

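NF-kappaB is a family of transcription factors built as dimers of 5 subunits, and the genes described here are those 5 subunits (Nfkb1, Nfkb2, Rela, Relb and Rel), the inhibitors Nfkbia and Nfkbie, the ubiquitin ligase gene Birc3 and the cofactor gene Bcl3. The 9 genes were taken as a list of names that was drawn up with earlier results of these data known, and all 9 were found among the 52636 gene identifiers of the table. RNA was sequenced from 24 samples of MC38, a mouse colorectal cancer cell line of the strain C57BL/6, with 3 samples from each of 8 lines grown in DMEM with serum. MC38-WT carried no construct, was the only line kept without puromycin, and was harvested at passages 7 to 9. MC38-MOCK#1 received the CRISPR-Cas9 system without a target gene (passages 4 to 6) and is the reference for the knockout lines. The knockout lines, all at passages 4 to 6, are MC38-CMAS KO (Cmas, the enzyme that activates sialic acid), MC38-COSMC KO (C1galt1c1, the chaperone needed to elongate the Tn antigen) and MC38-DKO, with both genes as targets. In the study, the cells of MC38-COSMC KO were sorted in bulk for high binding of a lectin that recognizes the Tn antigen, so this line is a selected population. MC38-MOCK#2 (passages 6 to 8) received the CRISPR-dCas-VPR system, which activates a gene in place, without a target gene, and is the reference for the lines labelled FUT4 (passages 7 and 8) and FUT9 (passages 6 to 8), named after fucosyltransferases.

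In resting cells, the IκB proteins hold the dimers of NF-kappaB in the cytoplasm. Signals from receptors of tumor necrosis factor, interleukin 1 or bacterial products lead to the loss of IκB and let p50 (from Nfkb1) and RelA enter the nucleus, which is the canonical pathway. A slower, noncanonical pathway processes the product of Nfkb2 to p52, which pairs with RelB. NF-kappaB induces several of its own regulators, among them Nfkbia, Nfkbie, Birc3, Nfkb2, Relb and Bcl3, so that levels of their RNA are often read as feedback. The activity of NF-kappaB itself, which depends on protein in the nucleus, was not measured.

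The promoters of these genes are shown because this feedback acts through κB sites, the DNA motif to which the dimers bind. RefSeq promoters (GRCm38.p6) were matched for 7 of the 9 genes, and none was matched for Nfkb1 and Relb. The 10-base κB consensus (GGGRNNYYCC, where R is A or G, Y is C or T and N is any base) was searched on both strands in the 250 bases before each start site. It was found in 4 of these 7 genes, namely Rel, Nfkbia, Nfkbie and Nfkb2. Of 32851 single promoters searched in the same way, 7.3% held it. The 7 genes have 9 promoters, several of them of Nfkb2, so the count of genes is not on the same footing as this share. In the sequences below, read 5′ to 3′ on the strand of the gene, capitals mark the bases that match the κB consensus on either strand. The match of Rel begins 92 bases before the start site, that of Nfkbia 29 bases and that of Nfkbie 106 bases, while Nfkb2 has separate matches that begin 39 and 11 bases before its first start site. A match describes the letters in this window and does not show binding.
Rel, chr11:23770982-23771131, minus strand: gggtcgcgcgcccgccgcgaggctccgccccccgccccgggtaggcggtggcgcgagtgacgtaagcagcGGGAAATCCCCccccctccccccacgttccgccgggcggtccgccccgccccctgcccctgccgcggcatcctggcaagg
Nfkbia, chr12:55492648-55492746, minus strand: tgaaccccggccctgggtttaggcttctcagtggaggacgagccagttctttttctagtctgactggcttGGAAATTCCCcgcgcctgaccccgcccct
Nfkbie, chr17:45555524-45555673, plus strand: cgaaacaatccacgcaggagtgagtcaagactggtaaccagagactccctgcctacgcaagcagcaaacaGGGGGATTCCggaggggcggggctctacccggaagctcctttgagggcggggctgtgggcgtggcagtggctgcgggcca
Nfkb2, chr19:46304628-46304736, plus strand: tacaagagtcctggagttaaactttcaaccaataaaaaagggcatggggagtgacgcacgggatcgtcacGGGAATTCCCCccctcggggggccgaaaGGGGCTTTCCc

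For each gene, the table gives its reads after scaling by the authors for library size and composition, rounded and referred to as normalized counts. Their totals lay between 10911849 and 12263307 per sample, and the spacing of the values gave an estimate of 6759106 to 16229893 reads per sample. The targeted genes were used to check the labels. Cmas had 93 to 142 normalized counts in MC38-CMAS KO and MC38-DKO, and at least 272 in each sample of the other lines. C1galt1c1 had 145, 163 and 124 normalized counts in MC38-COSMC KO and 242, 220 and 251 in MC38-MOCK#1, but its values in MC38-DKO (206, 166 and 175) and in MC38-CMAS KO (215, 181 and 152) overlapped, so its RNA does not tell these lines apart. Fut4 stood at 0 or 1 in all 24 samples, and the line labelled FUT4 instead had 209, 171 and 186 normalized counts of Fut9, against 955, 641 and 676 in MC38-FUT9 and at most 7 elsewhere. It is therefore called the line labelled FUT4 throughout. Among the markers of colon epithelium, Epcam, Cdh1, Krt8, Krt18, Krt19, Cdx2 and Vil1 did not exceed 8 normalized counts in any sample, whereas Krt20 had 263 to 468 in the line labelled FUT4, 30 to 44 in MC38-CMAS KO and at most 6 elsewhere. The part of this difference in the results was not tested. Leukocyte markers summed to at most 32 normalized counts and endothelial markers to at most 19, and Cd3e was at 0 in all samples. Of the fibroblast markers, Pdgfra had 401 to 1427 normalized counts and Col1a1 19 to 255 over the 24 samples. Dcn had 0 to 417 and Lum at most 11. The study's methods give separate passages and harvest times for the samples of the lines at passages 4 to 6, while for the other lines only the passage labels were at hand. The p-values thus measure the spread between passages of 1 line, except that the line labelled FUT4 has samples that share a passage label.

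All 9 genes were expressed in all 24 samples. Per kilobase of exon, the mean over the 24 samples was highest for Nfkb2 (633 normalized counts per kb), Rela (378) and Nfkbia (375). Nfkb1, which has the greatest exon length of the 9, followed with 128 normalized counts per kb, and Relb (62.5), Rel (49.4), Bcl3 (31.6), Nfkbie (27.3) and Birc3 (9.40) were lower. The canonical subunit Rela and its inhibitor Nfkbia were thus present at similar levels per length, and the noncanonical subunit Relb at a lower one than its partner Nfkb2. Between the line with the highest and the line with the lowest mean, Rela differed by 1.28-fold, which was the smallest ratio of the 9 genes, and Birc3 by 4.77-fold, which was the largest. In the other genes this ratio lay between 1.45 (Nfkb2) and 2.19 (Bcl3).

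**Figure D1:**
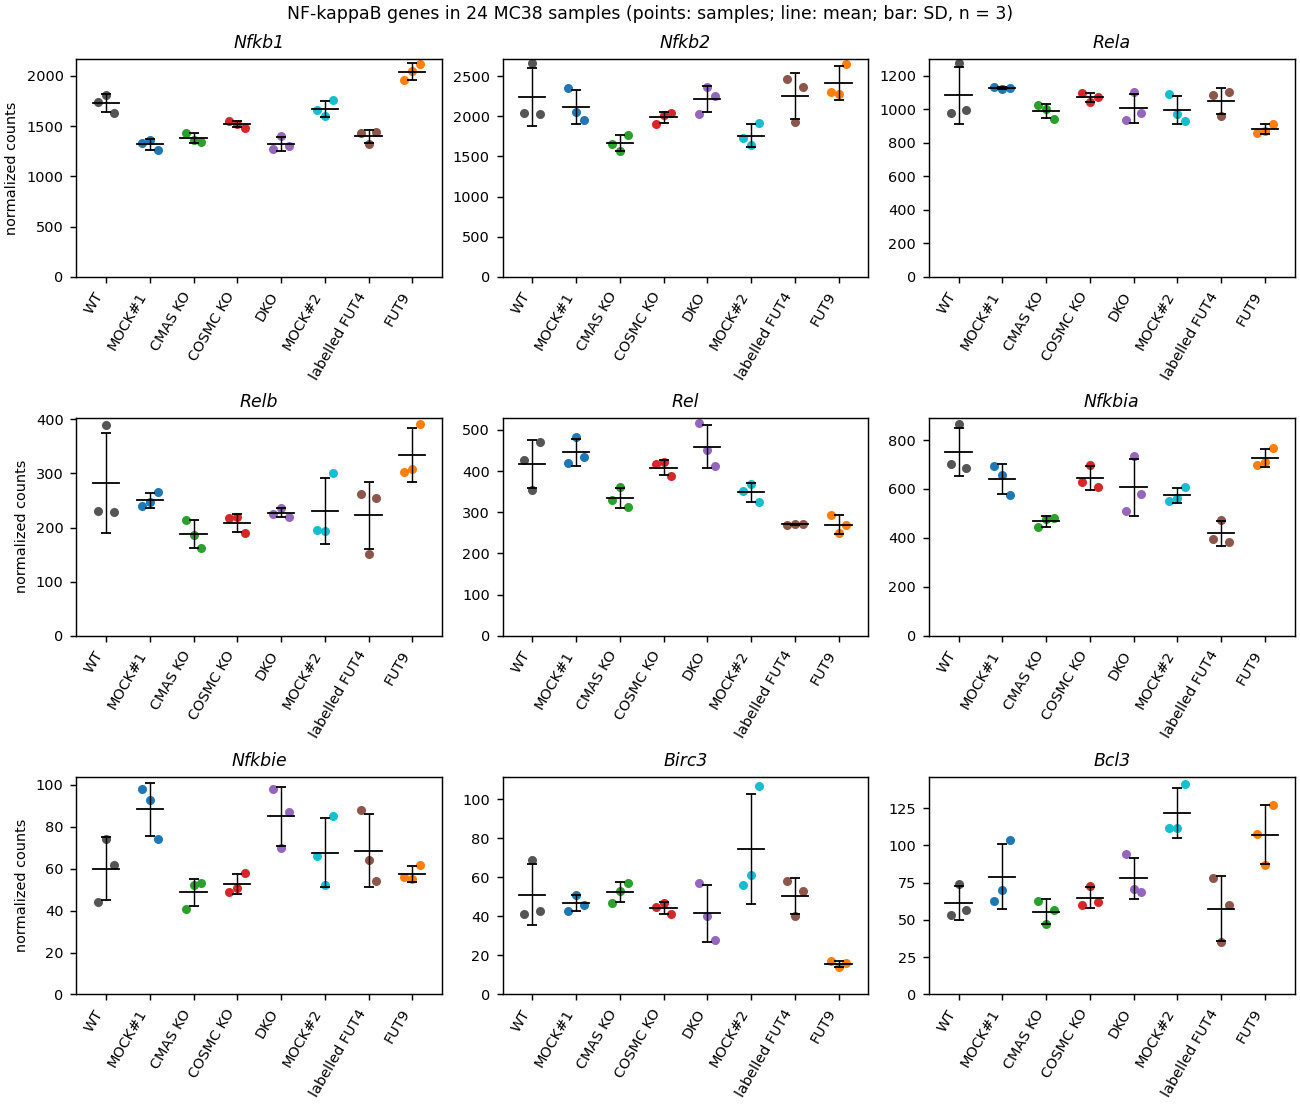
Normalized counts of the 9 genes (vertical axes, starting at 0) in the 8 lines (horizontal axes), with a point for each sample, a horizontal line for the mean and a bar for the SD of 3 samples. Birc3 lies at 14 to 17 in MC38-FUT9 and at 28 to 107 elsewhere, Nfkb1 is highest in MC38-FUT9, and Rela varies least.

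A test for any difference among the 8 lines (moderated F test of limma) called 8 of the 9 genes, where 48.2% of the 20944 genes tested were called. The adjusted p was lowest for Nfkb1 (8.19e-08), Rel (1.93e-06), Nfkbia (1.88e-05) and Birc3 (4.71e-05), and it was 0.00194 for Nfkb2, 0.00222 for Bcl3, 0.0194 for Nfkbie and 0.045 for Relb. Rela, with an adjusted p of 0.057, was not called. In these bulk samples, fewer cells that express a gene and less of its RNA per cell cannot be told apart. The call of Relb was kept in 8 of the 24 fits that left out 1 sample, with adjusted p between 0.0167 and 0.163, and was lost with each sample rescaled to the same total (0.0989) and with the replicate number as a block (0.0667). Rela was called with the same total (0.0139) and among genes with a mean of at least 10 (0.0416). The call of Relb was lost without any sample of MC38-MOCK#1, MC38-COSMC KO, MC38-DKO or MC38-FUT9, without samples 2 or 3 of MC38-CMAS KO and without samples 1 or 2 of MC38-MOCK#2. Rela was called in 6 of these 24 fits, namely without any sample of MC38-WT, sample 2 of MC38-DKO, sample 1 of MC38-MOCK#2 or sample 2 of the line labelled FUT4 (lowest adjusted p 0.0149), and Nfkbie was lost without sample 1 of MC38-MOCK#1 (adjusted p = 0.0513).

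Among the subunits of the canonical pathway, Nfkb1 (chromosome 3, GRCm38, 135584655 to 135691547, minus strand), which encodes the precursor of p50, separated the lines most clearly. Its mean was 2042 ± 81.0 normalized counts (SD, n = 3) in MC38-FUT9, 1726 ± 90.9 in MC38-WT, 1672 ± 80.1 in MC38-MOCK#2 and 1520 ± 34.0 in MC38-COSMC KO. It was 1398 ± 66.5 in the line labelled FUT4, 1380 ± 48.5 in MC38-CMAS KO, 1323 ± 67.3 in MC38-DKO and 1318 ± 53.1 in MC38-MOCK#1. In this order MC38-FUT9 lay above all others without overlap of samples, MC38-COSMC KO was separate from both of its neighbours, and the 4 lowest lines overlapped each with the next. Rela (chromosome 19, 5637483 to 5648130, plus strand), the subunit with the main transactivation domain of this pathway, had its highest mean in MC38-MOCK#1 (1125 ± 4.51 normalized counts) and its lowest in MC38-FUT9 (882 ± 29.5). The samples of the other 6 lines overlapped with those of the next line in the order, from 1084 ± 169 in MC38-WT to 989 ± 42.9 in MC38-CMAS KO, and the gap between MC38-CMAS KO and MC38-FUT9 was the only one.

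Rel (chromosome 11, 23736847 to 23770970, minus strand) encodes c-Rel, a subunit best known from lymphocytes. MC38-DKO had 459.7 ± 52.5 normalized counts, MC38-MOCK#1 446 ± 32.9, MC38-WT 417 ± 58.6 and MC38-COSMC KO 408 ± 18.4, and these lines overlapped. MC38-MOCK#2 (348 ± 22.7) and MC38-CMAS KO (334 ± 24.9) lay lower, and the line labelled FUT4 (270.3 ± 2.08) and MC38-FUT9 (270.0 ± 22.1) were the lowest. Samples did not overlap between MC38-COSMC KO and MC38-MOCK#2, nor between MC38-CMAS KO and the line labelled FUT4.

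The noncanonical subunits varied more between samples of a line. Nfkb2 (chromosome 19, 46304737 to 46312090, plus strand) ranged from 2410 ± 210.2 normalized counts in MC38-FUT9 to 1663 ± 97.7 in MC38-CMAS KO, with 2255 ± 284 in the line labelled FUT4, 2241 ± 360.0 in MC38-WT, 2213 ± 166 in MC38-DKO, 2116 ± 209 in MC38-MOCK#1, 1989 ± 70.3 in MC38-COSMC KO and 1758 ± 140.0 in MC38-MOCK#2. Each line overlapped with the next in this order. Relb (chromosome 7, 19606217 to 19629438, minus strand) had 334 ± 49.7 normalized counts in MC38-FUT9, 283 ± 92.1 in MC38-WT and 250.3 ± 13.3 in MC38-MOCK#1. It had 230.3 ± 61.2 in MC38-MOCK#2, 228 ± 8.62 in MC38-DKO, 223 ± 62.2 in the line labelled FUT4, 209 ± 16.5 in MC38-COSMC KO and 188 ± 25.5 in MC38-CMAS KO. Here too, all neighbours in the order overlapped. Both Nfkb2 and Relb were highest in MC38-FUT9 and lowest in MC38-CMAS KO. Exons of Nfkb2 overlap with Psd and those of Bcl3 with Gm16175, both on the other strand, reads that overlap several genes were left out by the authors, and whether strand was used in the counting is not given in the sources used here, so the levels of Nfkb2 and Bcl3 are less certain than those of the other 7.

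Nfkbia (chromosome 12, 55489410 to 55492647, minus strand), which encodes IκBα, the inhibitor that NF-kappaB restores first, was highest in MC38-WT (752 ± 98.8 normalized counts) and MC38-FUT9 (725 ± 37.2). It followed with 645 ± 48.4 in MC38-COSMC KO, 641 ± 59.8 in MC38-MOCK#1, 607 ± 116 in MC38-DKO and 574 ± 29.5 in MC38-MOCK#2. MC38-CMAS KO (468 ± 21.5) and the line labelled FUT4 (418 ± 49.6) were lowest and separate from the rest, and all other neighbours overlapped. Nfkbie (chromosome 17, 45555716 to 45563169, plus strand), which encodes IκBε, had 88.3 ± 12.7 normalized counts in MC38-MOCK#1 and 85.0 ± 14.1 in MC38-DKO. Intermediate levels were measured in the line labelled FUT4 (68.7 ± 17.5), MC38-MOCK#2 (67.7 ± 16.6) and MC38-WT (60 ± 15.1), and MC38-FUT9 (57.7 ± 3.79), MC38-COSMC KO (52.7 ± 4.73) and MC38-CMAS KO (48.7 ± 6.66) were lowest. None of the neighbours in this order was separate.

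Birc3 (chromosome 9, 7848699 to 7873186, minus strand) encodes cIAP2, a ubiquitin ligase that acts at the receptors of tumor necrosis factor and that NF-kappaB induces. It had 74.7 ± 28.1 normalized counts in MC38-MOCK#2, between 41.7 ± 14.6 (MC38-DKO) and 52.3 ± 5.03 (MC38-CMAS KO) in 6 lines, and 15.7 ± 1.53 in MC38-FUT9. Its closest relative Birc2, which encodes cIAP1, had 292, 249 and 240 normalized counts in MC38-FUT9, within or near the 213 to 366 of the other lines. Bcl3 (chromosome 7, 19808462 to 19822770, minus strand), an atypical IκB protein that binds p50 and p52 in the nucleus, had 122 ± 16.7 normalized counts in MC38-MOCK#2 and 107 ± 20.0 in MC38-FUT9. MC38-MOCK#1 (79.0 ± 21.9), MC38-DKO (78.0 ± 13.9), MC38-COSMC KO (65.0 ± 7.00), MC38-WT (61.3 ± 11.2), the line labelled FUT4 (57.7 ± 21.6) and MC38-CMAS KO (55.7 ± 8.08) followed without a gap. For Birc3, the only gap lay between MC38-DKO and MC38-FUT9.

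The genes were then compared between each line and its reference, with limma on log2 of the normalized count plus 1 and an adjusted p below 0.05 over all genes tested. Fold changes are on this log2 scale. The comparisons with MC38-MOCK#1 share its 3 samples, and those of the lines labelled FUT4 and FUT9 share the samples of MC38-MOCK#2, so that their results are given side by side and not as independent evidence.

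**Figure D2:**
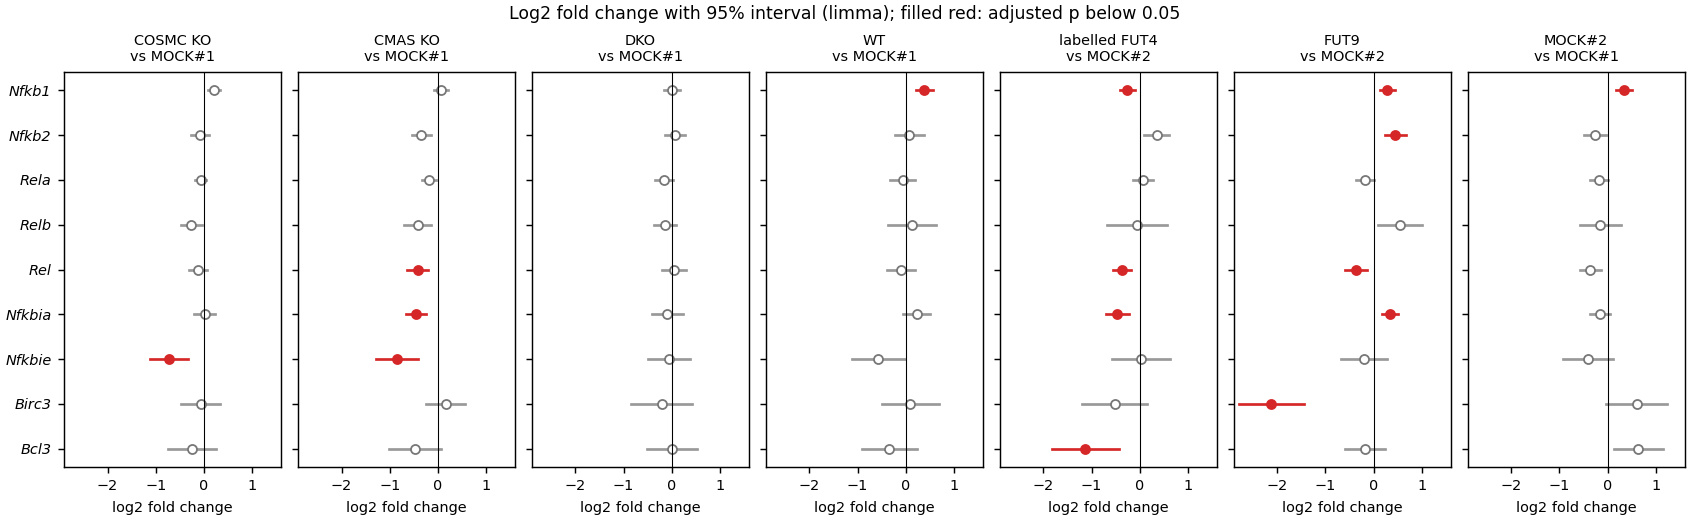
Log2 fold changes (horizontal axes) of the 9 genes (vertical axis) in 7 comparisons, with bars for the 95% interval from limma and red filled points for an adjusted p below 0.05. MC38-FUT9 shows 5 called genes, with Birc3 farthest from 0 at -2.13, MC38-DKO shows none, and MC38-CMAS KO has 3 called genes, all lower.

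In MC38-COSMC KO, the line with high Tn antigen, Nfkbie was lower than in MC38-MOCK#1 and no other gene of the group was called. MC38-MOCK#1 had the highest mean of Nfkbie among the 8 lines, and MC38-WT (44, 74 and 62 normalized counts) overlapped with both lines. Nfkbie had 49, 51 and 58 normalized counts in MC38-COSMC KO and 98, 93 and 74 in MC38-MOCK#1, without overlap. Nfkbie thus differed by -0.73 on the log2 scale (standard error 0.168, adjusted p = 0.0338). This is 1 of 9 genes, while 11.6% of the 22172 genes tested were called, 6.17% higher and 5.39% lower. With each sample rescaled to the same total, the called genes were 1125 higher and 1746 lower in place of 1367 and 1196, and Nfkbie remained called. Nfkb1 had 1553, 1522 and 1485 normalized counts against 1331, 1364 and 1260, also without overlap, with a log2 difference of 0.21 that missed the threshold (adjusted p = 0.0532). Samples of the lines were separate for 4 of the 9 genes, compared with 28.4% of all genes tested. The other 2 were Relb (log2 difference -0.26, adjusted p = 0.135) and Rela (-0.07, adjusted p = 0.437). Nfkbia, the other inhibitor, had 629, 699 and 606 normalized counts against 692, 655 and 575, and its interval ran from -0.21 to 0.23. The call of Nfkbie was lost without samples 1 or 2 of MC38-MOCK#1 or any sample of MC38-COSMC KO, with adjusted p up to 0.123, and with the replicate number, which here goes with the passage label, as a block (0.167). Nfkb1 was called among genes with a mean of at least 10 (0.0344) and when all 8 lines were fitted jointly (0.0275).

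Around these genes, the pathway of MC38-COSMC KO showed calls in both directions. Of 13 ligands and receptors tested, Tnfrsf1b (receptor 2 of tumor necrosis factor) rose by 0.63 on the log2 scale and Tnfrsf1a (receptor 1) fell by 0.37. Among 27 signal transducers 3 rose, among them the adaptors of TAK1 Tab1 (0.57) and Tab2 (0.56), and 3 fell, among them the adaptor Traf1 (-1.78) and the scaffold Card10 (-1.53). Of 12 further inhibitors, the deubiquitinase Otulin rose by 0.34. Among 26 target genes 5 rose, with the chemokines Ccl7 (3.48), Cxcl1 (1.65) and Ccl2 (1.55) in front, and 2 fell, among them Tnfaip2 (-0.91). The median log2 fold change was 0.25 over the target genes, -0.09 over the 9 genes and 0 over all genes tested. Traf1 and the chemokines are all known to be induced by NF-kappaB and were called in opposite directions. Ccl7 and Tab2 kept their calls in all 6 fits that left out 1 sample, Traf1 in 5, Cxcl1 in 4, Tnfaip2 in 3, Card10 in 2, Tnfrsf1a, Tab1, Otulin and Ccl2 in 1, and Tnfrsf1b in 0, and each was lost under the block. MC38-MOCK#1 also differed from other lines without a target gene. Ccl7 averaged 168 normalized counts in MC38-COSMC KO, 139 in MC38-WT and 14.7 in MC38-MOCK#1. Against MC38-MOCK#1, MC38-MOCK#2 also had Tnfrsf1b (1.98), Tab2 (0.34) and Cxcl1 (1.28) called higher and Traf1 (-1.87) lower. None of the 27 signal transducers was called in MC38-WT.

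MC38-CMAS KO had lower levels of Nfkbia, Nfkbie and Rel than MC38-MOCK#1. The values of Nfkbia were 443, 478 and 482 normalized counts against 692, 655 and 575 (log2 fold change -0.45, standard error 0.0885, adjusted p = 0.0341). Nfkbie stood at 41, 52 and 53 against 98, 93 and 74 (-0.85, standard error 0.183, adjusted p = 0.0462). Rel had 329, 361 and 312 against 420, 483 and 435 (-0.42, standard error 0.0913, adjusted p = 0.0481). In all 3 genes the samples of the lines were separate, and both inhibitors were among them. For Nfkbie, MC38-WT (44, 74 and 62) overlapped with both lines. The 3 of 9 genes compare with 5.76% of 22024 genes called, with 2.73% lower and 3.02% higher. Samples did not overlap for 6 of the 9 genes, all lower, and for 24.3% of all genes. The further genes were Nfkb2 (1656, 1569 and 1764 against 2351, 2048 and 1950, log2 difference -0.34, adjusted p = 0.0675), Relb (-0.42, adjusted p = 0.0947) and Rela (-0.19, adjusted p = 0.116). The median log2 fold change was -0.42 over the 9 genes and 0 over all genes tested. Nfkb1 (log2 difference 0.07) and Birc3 (0.16) were higher on average and not called. These calls lay close to the threshold: Nfkbie and Rel lost theirs without any 1 of the 6 samples (adjusted p up to 0.155 and 0.143), and Nfkbia without any sample but the third of MC38-MOCK#1 (up to 0.137). With the replicate number, and so the passage label, as a block, none of these 3 was called (adjusted p of 0.133 for Rel, 0.171 for Nfkbia and 0.192 for Nfkbie), Nfkbie was also lost with a pseudocount of 4 (0.052), and Nfkb2 was called with a mean of at least 10 (0.0382), the same total (0.0495) or all 8 lines (0.0426).

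None of 14 ligands and receptors was called in MC38-CMAS KO (limma). Of 27 signal transducers, Card10, Traf1 and Malt1 fell and 2 rose, among them Tab2 (0.45). Traf1, an NF-kappaB target itself, had 37, 42 and 46 normalized counts against 338, 234 and 210 (log2 fold change -2.59), and Malt1, the paracaspase that works with Card10, changed by -0.45. Among 12 further inhibitors, Nfkbiz, a nuclear IκB protein, rose by 1.23. Of 27 target genes 2 rose, Ccl7 (1.67) and Ptgs2 (1.18), the gene of cyclooxygenase, while none fell. Of these pathway genes, Traf1 was called in all 6 fits that left out 1 sample, Tab2 in 4, Malt1 in 2, Card10, Nfkbiz and Ccl7 in 1 and Ptgs2 in 0, and each call was lost under the block. Against the same samples of MC38-MOCK#1, Ccl7 was also called higher in MC38-WT (3.16), where none of the 27 signal transducers was called. MC38-MOCK#2 also had Traf1 (-1.87) and Malt1 (-0.37) called lower and Tab2 (0.34) higher.

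In MC38-DKO, which has both knockout labels, none of the 9 genes was called against MC38-MOCK#1 by limma, and none had an unadjusted p below 0.05, while 0.092% of 21738 genes tested were called, 0.023% higher and 0.069% lower. Nfkbie had 98, 70 and 87 normalized counts against 98, 93 and 74, and Rel had 516, 451 and 412 against 420, 483 and 435. These are genes that were lower in MC38-CMAS KO, and in MC38-DKO their samples overlapped with those of the reference. The intervals of the log2 difference ran from -0.49 to 0.37 for Nfkbie, from -0.21 to 0.29 for Rel and from -0.41 to 0.22 for Nfkbia. Changes of the size seen in MC38-CMAS KO lie outside the intervals of Nfkbie, Rel and Nfkbia. Samples did not overlap for Rela and Relb, both lower in MC38-DKO, or 2 of 9 genes, where 11.2% of all genes did not overlap. The log2 differences of these were -0.17 (adjusted p = 0.712) and -0.14 (adjusted p = 0.755). Among the further pathway genes, 1 of 25 targets was called, the adhesion molecule Vcam1, with 232, 271 and 242 normalized counts against 766, 1007 and 1281 (log2 fold change -2.0, adjusted p = 0.00423). That call was lost without any 1 of the 6 samples and under the block (0.639). Vcam1 was also called lower in MC38-MOCK#2 than in MC38-MOCK#1 (-1.09).

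Because 4 lines carry all combinations of the knockout labels, the difference that goes with the COSMC label can be compared with and without the CMAS label. It was not the same for 5 of the 9 genes (adjusted p below 0.05 for the interaction in limma over 12 samples), where 23% of 20608 genes tested were called. In Nfkbie the COSMC label went with a log2 difference of -0.73 without the CMAS label and of 0.79 with it, so that the interaction was 1.52 (standard error 0.267, adjusted p = 0.00097). Both single knockouts lay at 41 to 58 normalized counts, and MC38-MOCK#1 and MC38-DKO at 70 to 98. Rel differed by -0.13 and 0.46 (interaction 0.58, standard error 0.139, adjusted p = 0.00776). Nfkb2 differed by -0.09 and 0.41 (interaction 0.50, standard error 0.114, adjusted p = 0.00614). Relb differed by -0.26 and 0.29 (interaction 0.55, standard error 0.160, adjusted p = 0.024). In these 4 genes, MC38-DKO lay above MC38-CMAS KO, and 11.5% of all genes had an interaction called in this direction. Nfkb1 was the only gene called in the other direction, with differences of 0.21 and -0.06 (interaction -0.27, standard error 0.0881, adjusted p = 0.0422), against 11.4% of all genes. The interactions of Nfkbie, Rel and Nfkb2 were called in all 12 fits that left out 1 sample. That of Relb was lost without the third sample of MC38-CMAS KO or MC38-COSMC KO or the second of MC38-DKO (adjusted p up to 0.0632), and when all 8 lines were fitted jointly (adjusted p = 0.206). The interaction of Nfkb1 was kept in 2 of the 12 fits, without the third sample of MC38-CMAS KO or the second of MC38-DKO, and was lost in the others with adjusted p up to 0.0899 and with each sample rescaled to the same total (-0.20, adjusted p = 0.0863).

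**Figure D3:**
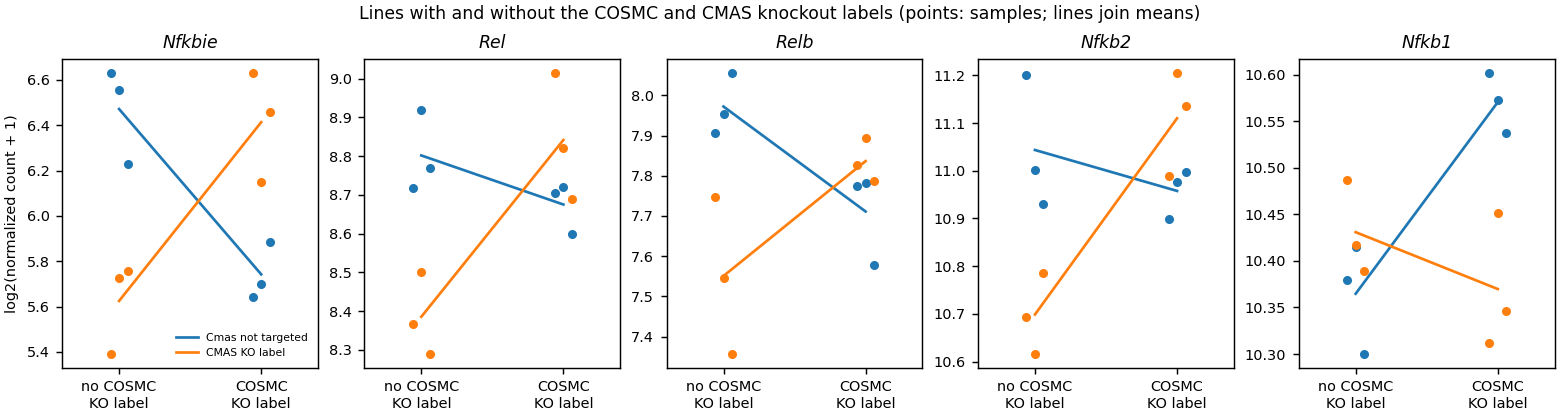
Log2 of the normalized count plus 1 (vertical axes, not starting at 0) of the 5 genes with a called interaction, in lines without and with the COSMC knockout label (horizontal axes), for lines with the CMAS knockout label (orange) and without it (blue). Points are samples and lines join the means, which run in opposite directions in all 5 genes.

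Bcl3 had a log2 interaction of 0.72 (standard error 0.301, adjusted p = 0.106), Nfkbia of 0.35 (adjusted p = 0.166), Rela of 0.09 (adjusted p = 0.583) and Birc3 of -0.30 (adjusted p = 0.592). The interaction of Nfkbia was called in 1 fit, without the first sample of MC38-DKO (adjusted p = 0.0449). Of the 13 ligands and receptors, 3 had an interaction called in the direction of Nfkbie and 3 in that of Nfkb1. Of the 26 signal transducers, these were 8 and 5. Of the further inhibitors, 3 of 12 had an interaction called, all in the direction of Nfkb1. Of the target genes, 2 of 26 were called in the direction of Nfkbie and 8 in that of Nfkb1. The median interaction was 0.50 over the 9 genes, -0.45 over the target genes and 0 over all genes tested. It was 0.42 over the ligands and receptors, -0.04 over the signal transducers and 0.0012 over the further inhibitors. As stated above, the RNA of C1galt1c1 does not tell MC38-DKO from MC38-CMAS KO, and each combination is 1 line.

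MC38-FUT9 had 5 called genes of the group, and the difference of Birc3 was the largest of the 9 genes in any of the 7 comparisons. Birc3 had 17, 14 and 16 normalized counts in MC38-FUT9 and 56, 61 and 107 in MC38-MOCK#2, a log2 fold change of -2.13 (standard error 0.284, adjusted p = 0.00273) or 0.229-fold. It was lower than in every sample of the other 7 lines. MC38-MOCK#2 had the highest mean of Birc3 of all lines (74.7). Apart from MC38-FUT9, the other means lay between 41.7 (MC38-DKO) and 52.3 (MC38-CMAS KO), so the fold change was set against the highest line. Nfkb2 rose, with 2305, 2273 and 2652 normalized counts against 1725, 1638 and 1912 (0.45, standard error 0.0889, adjusted p = 0.0118). The samples of the other reference line, MC38-MOCK#1 (2351, 2048 and 1950), overlapped with those of MC38-FUT9 for Nfkb2. Nfkbia rose, with 696, 712 and 767 against 550, 565 and 607 (0.34, standard error 0.0718, adjusted p = 0.0163). Nfkb1 rose, with 1960, 2043 and 2122 against 1661, 1598 and 1757 (0.29, standard error 0.0638, adjusted p = 0.0187). Each of these 3 genes was higher in every sample of MC38-FUT9 than in any sample of MC38-MOCK#2. Rel fell, with 293, 249 and 268 normalized counts against 352, 369 and 324 (-0.37, standard error 0.0938, adjusted p = 0.0311). Birc3, Nfkbia and Nfkb2 are all known as genes that NF-kappaB induces, and here the first was called in the opposite direction to the others.

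These 5 of 9 genes compare with 24.1% of 21480 genes called, 12.1% higher and 12% lower, and 7 of the 9 did not overlap, where 36.8% of all genes did not. The 2 genes without overlap that were not called were Relb (302, 308 and 391 against 196, 194 and 301, log2 difference 0.55, adjusted p = 0.0865) and Rela (858, 873 and 915 against 1092, 971 and 932, log2 difference -0.18, adjusted p = 0.156). The median log2 fold change of the 9 genes was -0.18, against 0.01 over all genes tested. With each sample rescaled to the same total, 1979 genes were higher and 3237 lower in place of 2596 and 2570, Nfkb1 (0.20, adjusted p = 0.0867) and Nfkbia (0.25, adjusted p = 0.0709) were no longer called, and Rela was (adjusted p = 0.0412). The call of Birc3 was kept in all 6 fits that left out 1 sample (adjusted p up to 0.0273). Nfkb2 lost its call without sample 1 or 2 of MC38-MOCK#2 (up to 0.0545), Nfkbia without sample 2 of MC38-MOCK#2 or of MC38-FUT9 (up to 0.0562), and Nfkb1 (up to 0.0621) and Rel (up to 0.0947) without samples 1 or 2 of MC38-MOCK#2 or samples 2 or 3 of MC38-FUT9. Relb was called without sample 3 of MC38-MOCK#2 (adjusted p = 0.0217). Fibroblast markers (Col1a1, Dcn, Pdgfra and Lum) summed to 969 to 1548 normalized counts in MC38-FUT9 and to 634 to 964 in MC38-MOCK#2, and the part of this in the differences was not tested. High sums were not limited to MC38-FUT9, since MC38-WT had 584 to 1385.

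In the wider pathway of MC38-FUT9, 2 of 15 ligands and receptors rose and 3 fell. The receptor of the noncanonical pathway Ltbr rose by 0.32 and Tnfrsf12a, the receptor of TWEAK, by 0.55 on the log2 scale, while Tnfrsf1b fell by 1.49 and Tnfrsf1a by 0.48. Of 26 signal transducers, 3 rose and 7 fell. Traf3, which restrains the noncanonical pathway, rose by 0.56, the kinase gene Irak4 fell by 0.62, Rbck1, of the linear ubiquitin ligase, fell by 0.52, and Card10 fell to 2, 3 and 3 normalized counts from 140, 97 and 76. Among 12 further inhibitors, Otulin (0.43) and Tnip2 (0.37) rose and Tnip1 (-0.61), a partner of A20, fell. Target genes were called lower in 6 and higher in 2 of 24 cases. Cxcl1 fell by 1.68, Mmp3 had 0, 0 and 1 normalized counts against 29, 24 and 84, Il15 had 2, 2 and 0 against 20, 25 and 35, and Ccl5 had 2, 2 and 7 against 24, 22 and 81. The median log2 fold change over the target genes was -0.30. In the fits that left out 1 sample, Ltbr, Otulin and Tnip2 kept their calls in 1 of 6, Tnfrsf12a in 3, Ccl5 in 4, Irak4 in 5 and the other genes named here in 6, and with the same total Ltbr and Tnip2 were lost. Tnfrsf12a averaged 1727 normalized counts in MC38-MOCK#2, 2544 in MC38-MOCK#1 and 2527 in MC38-FUT9. For Traf3 these means were 745, 967 and 1101. Both genes were called lower in MC38-MOCK#2 than in MC38-MOCK#1 (-0.56 and -0.37), so their rises were set against the lower of the reference lines.

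In the line labelled FUT4, 4 of the 9 genes fell against MC38-MOCK#2 and none rose, while 16.1% of 21734 genes were called, 8.1% higher and 8.04% lower. Bcl3 had 78, 35 and 60 normalized counts against 112, 112 and 141 (log2 fold change -1.13, standard error 0.292, adjusted p = 0.0423). MC38-MOCK#2 had the highest mean of Bcl3 among the 8 lines, and the line labelled FUT4 (57.7) lay between MC38-WT (61.3) and MC38-CMAS KO (55.7). Nfkbia had 397, 475 and 383 against 550, 565 and 607 (-0.46, standard error 0.10, adjusted p = 0.0238). Rel had 268, 271 and 272 against 352, 369 and 324 (-0.36, standard error 0.0812, adjusted p = 0.0262). Nfkb1 had 1432, 1321 and 1440 against 1661, 1598 and 1757 (-0.26, standard error 0.0675, adjusted p = 0.0435). Nfkb1 and Nfkbia were thus lower here and higher in MC38-FUT9, against the same reference samples, and Rel was lower in both. Nfkb2 had 2468, 1932 and 2365 normalized counts against 1725, 1638 and 1912, which did not overlap, with a log2 difference of 0.35 that was not called (adjusted p = 0.0728). It was called without sample 2 of the line labelled FUT4 (adjusted p = 0.0325). In all, 5 of 9 genes and 32.1% of all genes did not overlap. Relb had 262, 151 and 255 normalized counts against 196, 194 and 301, and its interval ran from -0.68 to 0.56.

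The calls in this line rest on how its samples are counted. Samples 1 and 3 are both labelled passage 7, and their median absolute log2 difference of 0.0641 over 9781 genes was the smallest of the 24 pairs of samples within a line (the others lay between 0.0925 and 0.201), although they differed by more than the sampling noise (mean chi-square 6.12 per gene). Counted separately, they gave the 4 calls above. When samples 1 and 3 were averaged and counted once, an alternative chosen after seeing the data, none of the 9 genes was called (limma, 4 at an unadjusted p below 0.05) and 1739 genes were called in all. Without any 1 of the 6 samples, Bcl3 and Nfkb1 were not called either (adjusted p up to 0.140 and 0.0997). Nfkbia was called only without sample 2 of the line labelled FUT4 (otherwise up to 0.10), and Rel only without that sample or sample 3 of MC38-MOCK#2 (otherwise up to 0.0795). With the replicate number as a block, none of the 4 was called (adjusted p of 0.06 to 0.0975), and Nfkb1 was lost with the same total (0.0555).

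Of 14 ligands and receptors, 2 rose and 5 fell in the line labelled FUT4. Cd40, a receptor that signals to the noncanonical pathway, had 68, 63 and 63 normalized counts against 5, 3 and 7 (3.51 on the log2 scale), and Tnfrsf1b (-1.92), Il1r1 (-1.37) and Tlr4 (-1.31) fell. Card10, at 1, 5 and 4 normalized counts against 140, 97 and 76, was the 1 gene of 26 signal transducers that was called. Among 12 further inhibitors, Nfkbib (0.46), which encodes IκBβ, and Tnfaip3 (0.85), which encodes A20, rose, and Nfkbiz fell by 1.27. Of 26 target genes 4 rose and 5 fell. Ccl7 rose by 3.15 and Ccl2 by 0.93, Cxcl1 fell by 1.55, and Mmp3 had 0, 0 and 3 normalized counts against 29, 24 and 84. With samples 1 and 3 averaged, Tlr4, Nfkbiz, Tnfaip3 and Ccl2 were no longer called, and they had kept their calls in 3, 2, 1 and 2 of the 6 fits that left out 1 sample. Cd40 averaged 5 normalized counts in MC38-MOCK#2, 35 in MC38-MOCK#1 and 64.7 in the line labelled FUT4. In the same order, the means were 331, 423 and 456 for Nfkbib and 390, 217 and 150 for Il1r1. These genes were also called between the reference lines. Cd40 and Nfkbib were thus set against the lower of these lines and Il1r1 against the higher.

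The unmodified and the control lines were compared to show how far these genes differ where no gene was targeted. In MC38-WT, Nfkb1 had 1736, 1812 and 1631 normalized counts against 1331, 1364 and 1260 in MC38-MOCK#1 (log2 fold change 0.39, standard error 0.0747, adjusted p = 0.0319), and it was the 1 gene of 9 that was called and the 1 whose samples did not overlap. Over all 21621 genes tested, 5.51% were called, 2.7% higher and 2.81% lower, and 23.4% did not overlap. Passage, puromycin and construct differ between these lines and cannot be told apart, and the call was lost without any 1 of the 6 samples (adjusted p up to 0.127) and with the replicate number as a block (0.136). Nfkbie had 44, 74 and 62 normalized counts against 98, 93 and 74 (log2 difference -0.57, adjusted p = 0.228). Without the second sample of MC38-WT, the uncalled log2 differences of Nfkb2 (-0.05), Relb (-0.12), Rel (0.01) and Birc3 (-0.15) changed sign. Among the further genes, Cd40 fell by 1.38, and 2 of 26 target genes rose, Ccl7 (3.16) and Csf1 (0.53), while 1 fell. Ccl7 kept its call in 3 of the 6 fits that left out 1 sample and Cd40 and Csf1 in 0, and all 3 were lost under the block. Between the reference lines, which differ in construct and passage, Nfkb1 was higher in MC38-MOCK#2 than in MC38-MOCK#1 (1661, 1598 and 1757 against 1331, 1364 and 1260, 0.34, standard error 0.0659, adjusted p = 0.0213). It was again the only one called, while 11.3% of 21667 genes were called, 5.3% higher and 6.02% lower. The call was kept only without the third sample of MC38-MOCK#2 and otherwise lost, with adjusted p up to 0.0762, and it was lost with the block (0.0626). Of the 9 genes 6 did not overlap, and 28.7% of all genes. Rel had a log2 difference of -0.36 (adjusted p = 0.0513, and below 0.05 with a pseudocount of 4, a mean of at least 10, the same total or all 8 lines), Bcl3 one of 0.64 (adjusted p = 0.112, and 0.0488 without the third sample of MC38-MOCK#1), and Birc3 had 56, 61 and 107 normalized counts against 43, 51 and 46 (0.61, adjusted p = 0.208). The log2 differences of Nfkb1 between lines without a target gene were thus 0.39 and 0.34, beside 0.29 between MC38-FUT9 and MC38-MOCK#2. This comparison also called Tnfrsf1b higher (1.98) and Cd40 lower (-2.62) among receptors, Traf1 lower (-1.87) among transducers, N4bp1 higher (0.56) and Nfkbib lower (-0.35) among inhibitors, and Mmp3, Cxcl1 (1.28) and Bcl2l1 (0.48) higher and Vcam1 (-1.09) lower among targets. Mmp3 had 29, 24 and 84 normalized counts in MC38-MOCK#2, 0, 0 and 1 in MC38-MOCK#1 and at most 10 in each sample of the other 7 lines, so that its low values in the line labelled FUT4 and in MC38-FUT9 were set against the 1 line in which it was high. Tnfrsf1b averaged 688 in MC38-MOCK#2, 173 in MC38-MOCK#1, 180 in the line labelled FUT4 and 242 in MC38-FUT9. For Cxcl1 these means were 312, 131, 109 and 101, so both genes were also set against the higher of the reference lines. Tnfrsf1b, Mmp3 and Bcl2l1 were called in all 6 fits that left out 1 sample, Cd40 and Traf1 in 5, N4bp1 and Nfkbib in 3, and Cxcl1 and Vcam1 in 1.

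The samples of a line were not equal in these genes. In MC38-WT, sample 2 was the highest of its line for 8 of the 9 genes and the lowest for Rel, with 389 normalized counts of Relb against 230 and 229 and 69 of Birc3 against 41 and 43. Over all genes with a mean of at least 10, 37.3% were highest in this sample. In MC38-MOCK#2, sample 3 was the highest for 7 of the 9 genes, and 37.0% of all genes, with 301 of Relb against 196 and 194 and 107 of Birc3 against 56 and 61. Sample 3 was also the highest for 7 of the 9 genes in MC38-FUT9, against 32.5% of all genes. In the line labelled FUT4, sample 2 was lowest for Relb (151 against 262 and 255) and Bcl3 (35 against 78 and 60). Relb, Birc3 and Bcl3 thus moved most within lines, and Nfkb1 and Rela least. With the values taken as deviations from the line mean, Relb correlated over the 24 samples with Nfkb1 (Pearson r = 0.748), Bcl3 (0.741), Nfkb2 (0.728) and Birc3 (0.672), and Nfkb2 with Rel at -0.636. These values are a description, since the deviations of a line sum to 0 and the 9 genes of a sample share its depth and harvest.

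**Figure D4:**
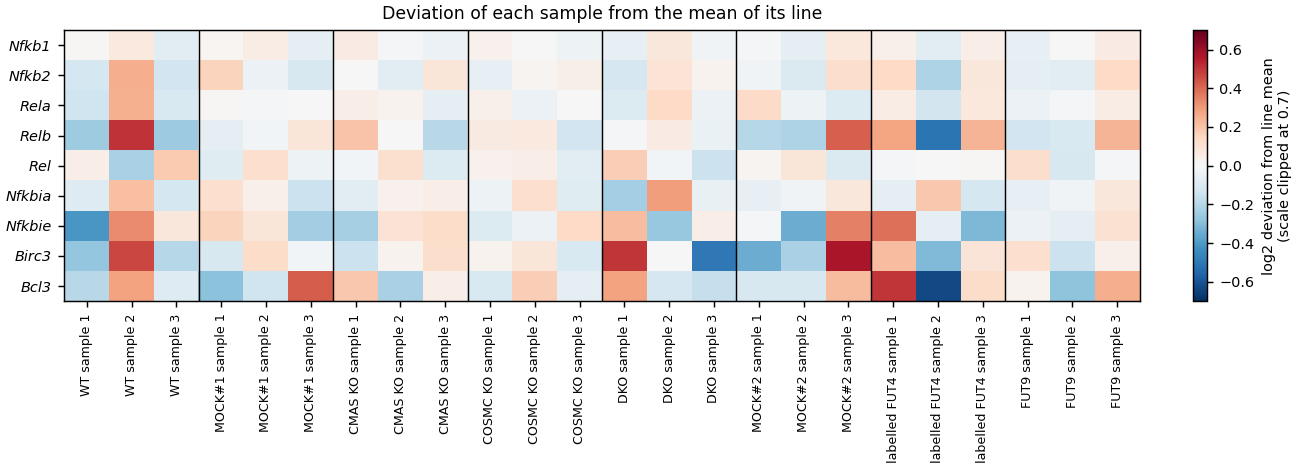
Log2 deviation of each of the 24 samples (horizontal axis) from the mean of its line for the 9 genes (vertical axis), from blue (below) to red (above), with the color scale clipped at 0.7. Sample 2 of MC38-WT and sample 3 of MC38-MOCK#2 are red for most genes, and Relb, Birc3 and Bcl3 show the strongest colors.

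Genes with the most similar pattern were named for each gene of the group by Pearson correlation of log2 values over the 24 samples, among 13514 genes with a mean of at least 10. Nfkb1 was most like Rab31 (r = 0.93), Ryk (0.929) and Epb41l1 (0.928), and Rel most like Mat2b (0.936), Ndfip2 (0.879) and Hcn2 (0.875). Birc3 was closest to Ksr1 (0.910), Flot1 (0.904) and Gng11 (0.899), and Relb to Capg (0.903), Orai3 (0.853) and Ifngr2 (0.838). For Nfkb2 the closest genes were Grk6 (0.754), Myo1e (0.745) and, as the only gene of the group, Relb (0.719). Nfkbia was followed by Dgkh (0.842), Sepsecs (0.841) and Ppic (0.841), Nfkbie by Gm3325 (0.797), Pnkd (0.796) and Pld1 (0.768), Bcl3 by Rcan3 (0.826), Tbkbp1 (0.824) and Prr14 (0.816), and Rela by Gadd45a (0.816), Ethe1 (0.803) and Nprl3 (0.764). The 24 samples come from 8 lines, and the ranking describes these lines only.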

How the data were processed

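RNA (polyA) was sequenced from 24 samples of 8 MC38 lines. The authors trimmed the reads with Sickle, aligned them to GRCm38 with HISAT2 2.0.4, sorted them with SAMtools 0.1.19, counted reads per gene with featureCounts (Subread 1.5.0-p3), leaving out reads that overlap several genes, and normalized with edgeR 3.18.1 for library size and composition (TMM). The deposited values are these counts scaled by 1 factor per library and rounded, of the unit score rather than raw counts, so no count model was used. The reads behind them (6759106 to 16229893 per sample, 1 read being 0.756 to 1.67 normalized counts) were estimated from the spacing of the values. On simulated data the estimate recovered factors drawn at random but could fail where a factor was an exact simple ratio.

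Groups came from the sample labels. Lines were compared in R 4.3.3 with limma 3.58.1 (lmFit, and eBayes with a trend). Values entered as log2 after a pseudocount of 1 was added, for genes above 0 in at least 2 of the 6 samples compared (8 of 24 for the F test), with Benjamini-Hochberg adjustment over all genes tested and a threshold of 0.05. The same fit over 12 samples tested the interaction. The fit for a pair of lines was tested on simulated data, and the interaction fit was not. Same-numbered samples share the passage label in part of the comparisons, but the labels do not say that they were handled together. Alternatives were a pseudocount of 4, a mean of at least 10, rescaling to the same total, all 8 lines in a single fit, the replicate number as a block, and leaving out each sample. Scripts used Python 3.11.15 with numpy 2.4.6, pandas 2.3.3 and matplotlib 3.10.9.

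The 9 genes, the pathway lists (21 ligands and receptors, 27 transducers, 14 further inhibitors, 30 targets) and the marker lists were chosen with earlier results of these data known. Further pathway genes were named by rule, as up to 4 called genes per list and comparison with the largest change and a mean of at least 10. Birc2 was named after its values were seen. Of the listed inhibitors, 13 of 14 were in the table, the other, Fam105b, being an older symbol of Otulin. Coordinates and exon lengths are from the GENCODE annotation of GRCm38, and promoters from RefSeq (GRCm38.p6).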

Additional observations from a re-analysis of the deposited data

Results flagged for a closer look

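In 5 genes, the difference that goes with the COSMC knockout label was not the same in lines with and without the CMAS knockout label, by the interaction test of limma over 12 samples. On the log2 scale, the interaction was 1.52 for Nfkbie, 0.58 for Rel, 0.55 for Relb, 0.50 for Nfkb2 and -0.27 for Nfkb1. In Nfkbie, the values were 98, 93 and 74 normalized counts in MC38-MOCK#1, 49, 51 and 58 in MC38-COSMC KO, 41, 52 and 53 in MC38-CMAS KO and 98, 70 and 87 in MC38-DKO. The values of Rel were 420, 483 and 435, then 416, 421 and 387, then 329, 361 and 312, and 516, 451 and 412, in the same order of lines. Of all 20608 genes tested, 23% had a called interaction.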

How the results depend on the processing

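Of the 9 genes, calls numbered 0 to 1 for MC38-COSMC KO, MC38-CMAS KO and MC38-MOCK#2 against MC38-MOCK#1 in the fits that left out 1 sample each, 0 to 0 for MC38-DKO and MC38-WT, 0 to 3 for the line labelled FUT4, 1 to 6 for MC38-FUT9, 3 to 5 for the interaction and 6 to 9 for any difference among lines. Over all genes these fits called 675 to 2137 (MC38-COSMC KO), 122 to 876 (MC38-CMAS KO), 0 to 4 (MC38-DKO), 31 to 693 (MC38-WT), 1621 to 3112 (line labelled FUT4), 3089 to 5065 (MC38-FUT9), 632 to 1737 (MC38-MOCK#2), 3948 to 4696 (interaction) and 9315 to 10317 (any difference). With all 8 lines in a single fit, the calls over all genes were 2207 for MC38-CMAS KO, 159 for MC38-DKO, 2981 for MC38-WT and 3976 for MC38-MOCK#2, against 1268, 20, 1192 and 2454. The calls among the 9 genes were 2 in place of 1 for MC38-COSMC KO with a mean of at least 10 and with all 8 lines, and 2 in place of 1 for MC38-MOCK#2 with a pseudocount of 4, a mean of at least 10, the same total or all 8 lines. The averaged samples of the line labelled FUT4 gave 1739 genes and 0 of the 9. The cause of these shifts was not tested.

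With the replicate number as a block, calls over all genes were 4 for MC38-COSMC KO, 1 for MC38-CMAS KO, 0 for MC38-DKO and MC38-WT, and 1756 for the line labelled FUT4, and 0 of the 9 genes were called in these or in MC38-MOCK#2. The block left 5 calls for MC38-FUT9 and 5 for the interaction, with Relb gained (adjusted p = 0.0291) and Rel lost (0.0674) in MC38-FUT9. Same-numbered samples share the passage label in MC38-MOCK#1 and the knockout lines and in MC38-MOCK#2 and MC38-FUT9, but not in the other comparisons, and the labels do not say that they were harvested together. Their deviations correlated between -0.219 and 0.270. All 3 correlations were positive for MC38-FUT9 against MC38-MOCK#2 (0.0912, 0.216 and 0.209) and for MC38-MOCK#2 against MC38-MOCK#1 (0.158, 0.0948 and 0.270), and in no other comparison. The block was kept as an alternative throughout, and these values do not settle whether the samples of these comparisons are paired.

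Differences that changed sign were all uncalled. With the same total in each sample, Nfkbia was at -0.047 in MC38-COSMC KO, and Nfkb1 at -0.012 and Bcl3 at -0.015 in MC38-DKO. Leaving out samples, log2 differences ran from -0.065 to 0.068 for Nfkbia in MC38-COSMC KO. In MC38-DKO they ran from -0.036 to 0.034 for Nfkb1, from -0.046 to 0.12 for Rel, from -0.24 to 0.029 for Nfkbia, from -0.18 to 0.073 for Nfkbie, from -0.46 to 0.036 for Birc3 and from -0.14 to 0.21 for Bcl3. In MC38-WT they ran from -0.19 to 0.0052 for Rela, from -0.053 to 0.15 for Nfkb2, from -0.12 to 0.26 for Relb, from -0.20 to 0.0090 for Rel and from -0.15 to 0.22 for Birc3, and in the line labelled FUT4 from -0.17 to 0.20 for Nfkbie and from -0.20 to 0.20 for Relb. With 3 samples per line, only large differences of the genes with few reads (Nfkbie, Birc3, Bcl3) can be called.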
